A study of Homo sapiens with 2 samples.

Results

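Nucleolar ribosome biogenesis genes were followed in ACHN cells that carried an shRNA against KIAA1429, the scaffold subunit of the m6A methyltransferase complex. The group held 55 genes, chosen by name as nucleolar, rRNA processing and RNA polymerase I genes whose transcription is classically driven by MYC, out of 12007 gene symbols listed in the files. Every one of the 55 was listed in both libraries. ACHN is a long-established human cell line from a renal cell carcinoma. It had been infected with lentivirus, with either a control shRNA (shNC) or one directed at KIAA1429 (shKIAA1429), and puromycin was used to select stable lines. The sample labels call the shKIAA1429 line a knockout, whereas the study's methods describe an shRNA knockdown. Which of the study's KIAA1429 shRNAs was sequenced is not named there. Poly(A) RNA was read in strand-marked, paired-end libraries, 1 library per line. No difference below has a replicate check, and no test or p-value is given. Differences between the shRNAs therefore cannot be told apart from differences between single cultures, nor, in bulk RNA, fewer cells of a kind from less RNA per cell.

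Ribosome assembly begins in the nucleolus, where RNA polymerase I transcribes the long precursor of most ribosomal RNA. Small nucleolar RNPs (snoRNPs) then methylate and pseudouridylate this precursor, and large particles of assembly factors fold and cut it into the rRNA of the small (40S) and large (60S) subunits. MYC binds E-boxes, with the letters CACGTG as the preferred form, near the starts of many of these genes, and high nucleolar output is a well-known trait of cells with high MYC. In these libraries MYC was at 28.5 FPKM with shNC and 4.53 FPKM with shKIAA1429, a log2 change of -2.42. KIAA1429 itself (VIRMA) was at 3.92 and 3.22 FPKM. Its log2 change of -0.22 lies within 0.5, as do those of 84.0% of the genes analysed. By these FPKM values the targeted mRNA was thus only slightly lower in the library labelled as its knockout. The study itself reported significantly reduced KIAA1429 mRNA by quantitative PCR, and protein by western blot, in its ACHN knockdown cells. The question here was how the nucleolar genes stood between 2 libraries that differ so widely in MYC mRNA.

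The nucleolar genes were not lower as a group in the shKIAA1429 library. FPKM values are fragments scaled to gene length and library size, and each change is a log2 ratio, shKIAA1429 over shNC, taken after 1 FPKM was added to both values, which makes the change of low genes look smaller than it is. A mean of both libraries of at least 1 FPKM was required, which kept 54 of the 55 genes and 10702 genes in all. PWP2, a subunit of the small subunit processome, was left out by it, at 0.783 FPKM with shNC and 0.489 FPKM with shKIAA1429. The median log2 change of the 54 genes was 0.14, with the middle 50% between -0.05 and 0.35, beside a median of 0.06 over all genes kept, with the middle 50% between -0.15 and 0.27. Of the 54 genes, 36 were higher with shKIAA1429 (66.7%, against 57.3% of all genes kept). Their FPKM summed over all 55 genes was 1191 with shNC and 1235 with shKIAA1429, or 0.728% and 0.757% of the sum without mitochondrial genes. When both libraries were brought to the same sum, 1000000, the median over all genes kept moved from 0.06 to 0.24 and that of the nucleolar genes from 0.14 to 0.34. In that setting 48 of 54 were higher, so that 12 of the 18 genes below 0 as deposited lay above it, and 74.6% of all genes kept were above 0. Rescaling without the mitochondrial genes left 36 of 54 higher, beside 57.7% of all genes kept.

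Most of the changes were small. A log2 change within 0.5 in either direction was found for 44 of the 54 genes (81.5%, against 84.0% of all genes kept). Beyond it, 8 genes were higher, where 9.90% of all genes kept were higher by that much, and 2 were lower, where the share of all genes was 6.12%. With a limit of 1 on the log2 scale 1 gene was lower and 0 were higher, against 0.897% and 1.61% of all genes kept. The study's methods name a limit of 1.5 on DESeq2 changes, together with a P value cutoff. Here 1.5 was applied to the log2 ratio of FPKM + 1 alone. Past it there were 0 nucleolar genes in either direction, beside 0.383% of all genes higher and 0.252% lower. These shares are close to those of all genes, so the counts past a limit do not set the nucleolar genes apart.

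**Figure D1:**
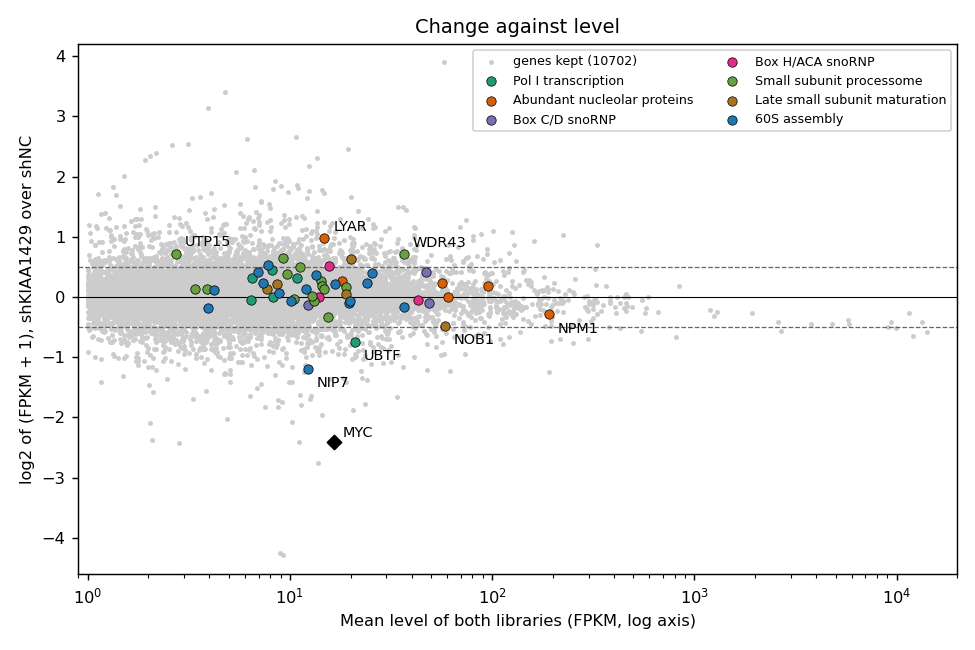
Log2 change of (FPKM + 1), shKIAA1429 over shNC, against the mean FPKM of both libraries (log axis) for 10702 genes (grey) and 54 nucleolar genes (coloured by role), with MYC as a black diamond. Dashed lines mark 0.5 in either direction. The nucleolar genes lie between -1.20 (NIP7) and 0.98 (LYAR), and MYC lies below all of them at -2.42.

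The E-box is shown first, as the letters that MYC prefers. The group was chosen as classic MYC targets, a choice that is not independent of E-boxes near the start. RefSeq promoter windows on GRCh38.p14, from 250 bases before to 50 bases after each annotated gene start, were found for 46 of the 55 genes in 57 windows, since a gene can have several starts. No window was used for BOP1, DDX18, MPHOSPH10, NOLC1, NOP58, RRP12, RRP1B, RRS1 or TCOF1. The letters CACGTG, which read the same on both strands, stood in a window of 22 of the 46 genes (47.8%). The same letters stood in 13.3% of the 8457 kept genes with a window and in 8.77% of all 27305 genes of the table. The excess lay after the start: 17 of 46 nucleolar genes (37.0%) had the motif beginning within the 50 bases from the start on, against 1.63% of the kept genes, whereas before the start the shares were 15.2% and 11.8%. Palindromes of the same base composition, chosen for comparison after the motif had been counted, were rarer than CACGTG in the nucleolar genes. From the start on, ACCGGT was found in 2.17% of the nucleolar and 0.698% of the kept genes, and CTCGAG in 2.17% and 1.56%, which is 1 nucleolar gene each. In the whole window the shares were 4.35% and 3.29% for ACCGGT and 6.52% and 7.75% for CTCGAG. A match is a description of letters in a window and not a measured binding site.

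Stretches of up to 60 bases around each motif that lay wholly before the start are given for all 7 genes with one, cut off at the start or at the far edge of the window where those are nearer, with the motif in capitals. They show how different the flanks are around the same 6 letters, and that the motif came as near as base -10 in UTP20. Positions are counted from the annotated start, with -1 as the base before it.
LYAR, chr4:4290053-4290112, minus strand, motif from -64: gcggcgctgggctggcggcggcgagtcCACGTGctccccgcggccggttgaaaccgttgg
DDX21, chr10:68956589-68956646, plus strand, motif from -31: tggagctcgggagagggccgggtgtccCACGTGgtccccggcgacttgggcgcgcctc
UTP20, chr12:101280068-101280104, plus strand, motif from -10: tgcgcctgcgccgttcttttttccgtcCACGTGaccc
NAT10, chr11:34105587-34105628, plus strand, motif from -15: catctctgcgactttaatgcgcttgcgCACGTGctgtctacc
UTP18, chr17:51260430-51260489, plus strand, motif from -89: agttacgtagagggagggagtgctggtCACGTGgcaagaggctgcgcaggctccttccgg
IMP4, chr2:130342667-130342726, plus strand, motif from -203: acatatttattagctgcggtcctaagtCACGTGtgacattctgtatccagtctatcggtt
EBNA1BP2, chr1:43172775-43172820, minus strand, motif from -237: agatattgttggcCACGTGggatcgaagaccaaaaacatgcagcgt

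For the 3 genes past 0.5 on the log2 scale with the motif after the start, 30 bases around it are given. These genes were chosen after their values were seen.
GNL2, chr1:37595917-37595946, minus strand, motif from base 4: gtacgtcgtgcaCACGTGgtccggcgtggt
WDR43, chr2:28894658-28894687, plus strand, motif from base 4: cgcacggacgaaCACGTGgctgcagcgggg
LTV1, chr6:143843354-143843383, plus strand, motif from base 29: gtcctggggctgCACGTGtggtgaggccta

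By role, the motif was found in 9 of 15 genes of the small subunit processome, 6 of 12 genes of 60S assembly and 3 of 5 of the abundant nucleolar proteins. It was in 0 of the 5 genes of RNA polymerase I transcription that had a window. In the other genes of the pathway, described below, it was in 10 of 31 genes of the small subunit and 10 of 39 of the large subunit, with 5 and 2 of them having it from the start on.

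**Figure D2:**
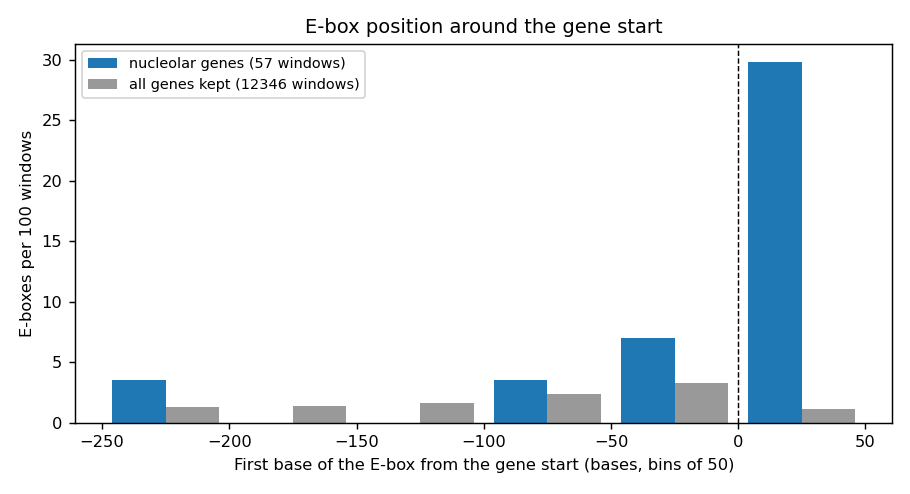
E-boxes per 100 promoter windows, by the distance of the first base of the motif from the annotated gene start (bins of 50 bases), in 57 windows of nucleolar genes (blue) and 12346 windows of all genes kept (grey). From the start on there were 29.8 per 100 windows in nucleolar genes and 1.12 in all genes kept, whereas the bins before the start differ less.

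The nucleolar genes with an E-box in their window were not lower than those without one. Among the 21 kept genes with the motif, the median log2 change was 0.22, the range ran from -0.33 for NOP14 to 0.98 for LYAR, and 14 were higher with shKIAA1429. Among the 24 kept genes with a window but no motif, the median was 0.09, the range ran from -1.20 for NIP7 to 0.72 for UTP15, and 15 were higher. Over all genes kept the medians were 0.05 for the 1123 genes with the motif and 0.06 for the 7334 without. Of these, 654 and 4213 were higher with shKIAA1429, as were 57.3% of all genes kept. Both genes lower by more than 0.5, NIP7 and UBTF, had a window and no motif in it.

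**Figure D3:**
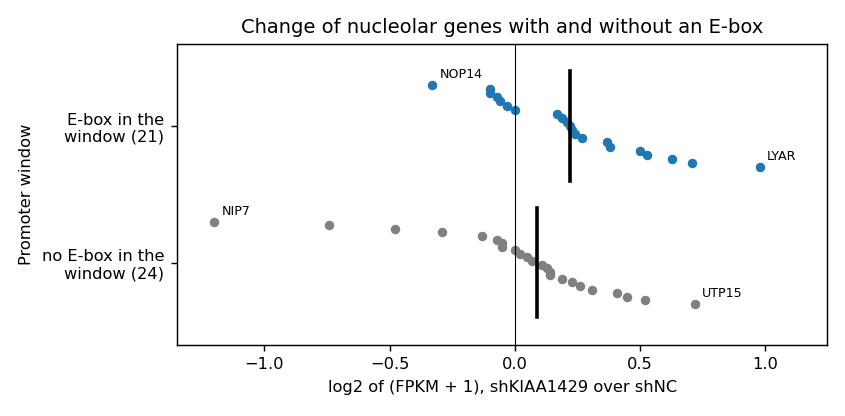
Log2 change of (FPKM + 1), shKIAA1429 over shNC, of the nucleolar genes with (21 genes, blue) and without (24 genes, grey) an E-box in the promoter window. Points are genes in order of change and black bars are medians, 0.22 and 0.09. The lowest point is NIP7, in the row without the motif.

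In level, the nucleolar genes were well expressed in both libraries. Their median stood at 12.8 FPKM in the shNC and 13.5 FPKM in the shKIAA1429 library, where the genes kept had medians of 5.70 and 6.10 FPKM, and 49 of the 55 were above that median in each library. The span ran from PWP2, below 1 FPKM in both, to NPM1 at 211 and 172 FPKM. The 3 most abundant genes held 30.9% of the group's summed FPKM with shNC and 27.2% with shKIAA1429.

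**Figure D4:**
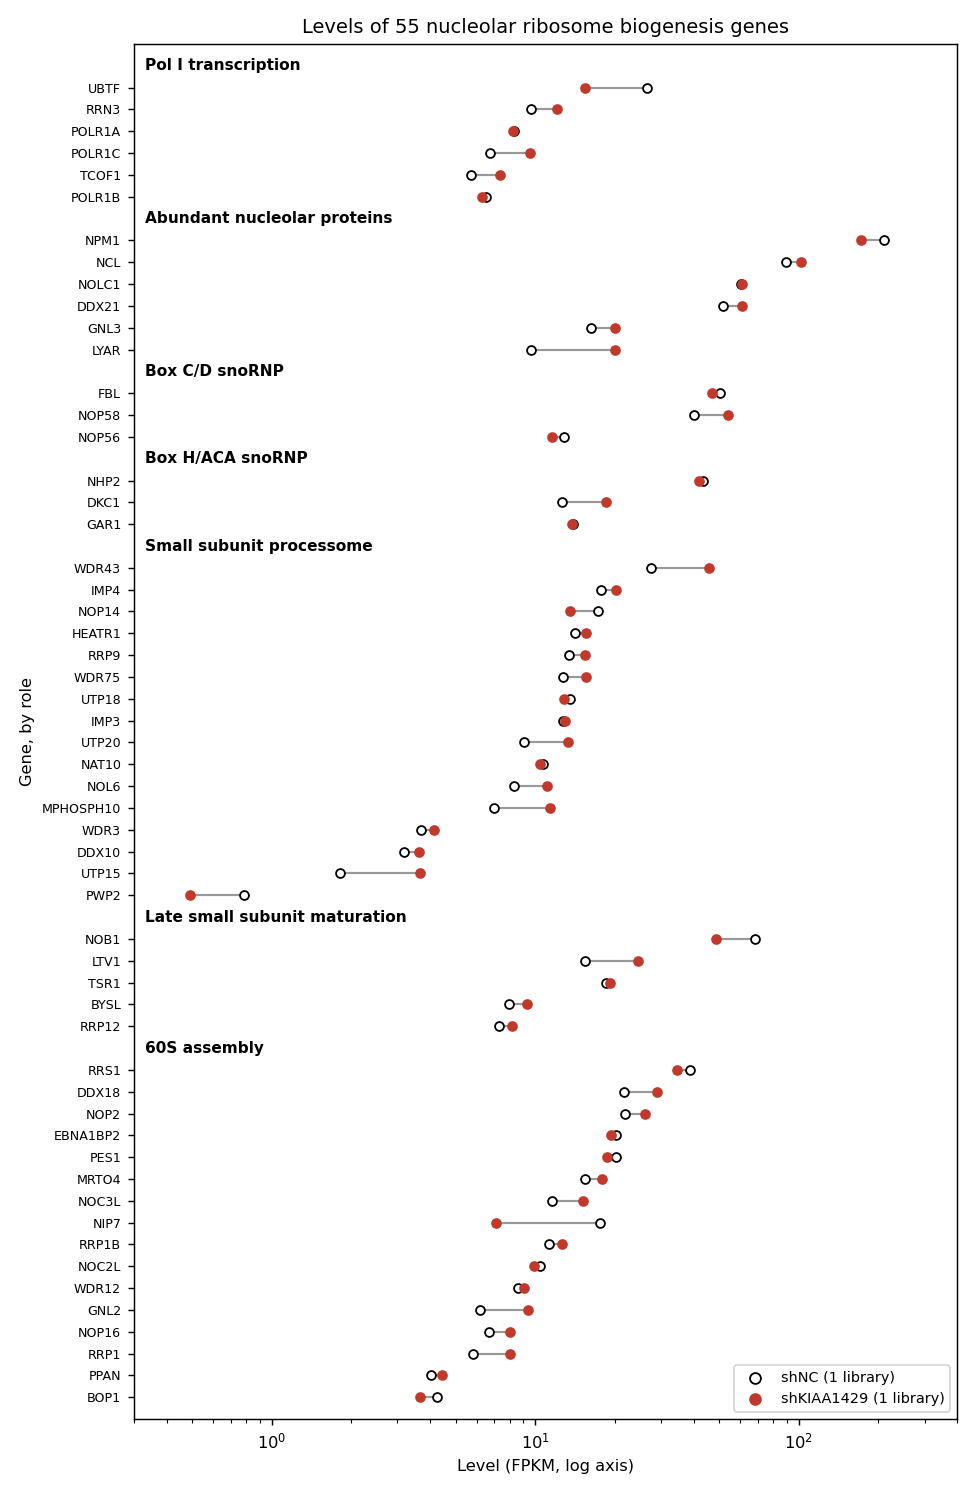
FPKM (log axis) of 55 nucleolar genes in the shNC library (open circles) and the shKIAA1429 library (filled circles), by role and in order of mean level. For most genes the pair of points lies close together. The widest gaps are those of NIP7, which was lower with shKIAA1429, and of LYAR and UTP15, which were higher.

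Of the 6 genes of RNA polymerase I transcription, UBTF was the one that stood apart. UBTF encodes the upstream binding factor, which keeps rDNA open and recruits the polymerase. It was at 26.5 FPKM with shNC and 15.5 FPKM with shKIAA1429, 58.5% of the shNC level with a log2 change of -0.74, at rank 245 from the lowest of 10702. Its GRCh37 position is chr17:42282401-42298994, minus strand. The large catalytic subunits of the enzyme were level. POLR1A was at 8.29 and 8.26 FPKM and POLR1B at 6.52 and 6.26 FPKM. RRN3, the initiation factor that carries the polymerase to the promoter, was at 9.61 and 12.1 FPKM, a log2 change of 0.31. POLR1C, a subunit shared with RNA polymerase III, was at 6.71 and 9.57 FPKM, a log2 change of 0.45. TCOF1, the treacle protein that scaffolds Pol I factors, was at 5.70 and 7.37 FPKM, a log2 change of 0.32. In this role the recruiting factor was thus lower while the enzyme, its carrier and its scaffold were level or higher, and the median of the 6 was 0.15. That median was 0.34 after rescaling to a sum of 1000000, where that of all genes kept was 0.24. It was 0.02 with the trend of GC content and length removed.

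The role of abundant nucleolar proteins held the most highly expressed genes of the group, NPM1 and NCL. Not all of its genes were abundant here, as LYAR with shNC was below the group's median of 12.8 FPKM. NPM1, the histone chaperone and shuttling protein of the outer nucleolus, was at 211 FPKM with shNC and 172 FPKM with shKIAA1429, a log2 change of -0.29. GENCODE 29 has 45 pseudogenes named after NPM1, so its reads can have been shared with near-copies and its value is uncertain. NCL, nucleolin, was at 89.4 and 102 FPKM, a log2 change of 0.19. NOLC1, the snoRNP chaperone Nopp140, was the same within 1%, at 60.6 and 60.7 FPKM. DDX21, a helicase of rRNA transcription and processing, was at 51.8 and 61.0 FPKM, a log2 change of 0.23. GNL3, nucleostemin, was at 16.3 and 20.0 FPKM, a log2 change of 0.27. Apart from NPM1, this set was thus level or slightly higher with shKIAA1429, and LYAR, a nucleolar zinc finger protein linked to cell growth, had the highest change of all 54 genes. LYAR was at 9.64 FPKM with shNC and 20.0 FPKM with shKIAA1429, 208% of the shNC level with a log2 change of 0.98, at rank 182 from the highest of 10702. Its GRCh37 position is chr4:4269428-4291896, minus strand, and it is the gene shown above with its E-box at base -64.

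The core proteins of the snoRNPs stood on both sides of 0. Box C/D snoRNPs guide ribose methylation, by the methyltransferase fibrillarin (FBL) on a core of NOP56 and NOP58. FBL was at 50.3 FPKM with shNC and 46.8 FPKM with shKIAA1429, a log2 change of -0.10. NOP56 was at 12.9 and 11.6 FPKM, a log2 change of -0.13, whereas NOP58 was at 40.0 and 53.8 FPKM, a log2 change of 0.42. NOP56 and NOP58, which pair in the particle, thus lay apart. NOP56 and FBL, below 0 as deposited, were at 0.04 and 0.08 after rescaling to a sum of 1000000, where the median of all genes kept was 0.24. After centring on the median of all genes kept, NOP56 and FBL were at -0.19 and -0.16. Box H/ACA snoRNPs guide pseudouridylation by dyskerin (DKC1). DKC1 was at 12.6 and 18.6 FPKM, a log2 change of 0.52 that was 0.47 after centring on the median of all genes kept. Its partners were level, GAR1 at 13.9 and 13.8 FPKM and NHP2 at 43.5 and 42.0 FPKM.

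The small subunit processome, the particle that forms on the nascent precursor and prepares the 40S subunit, held 4 of the 8 genes higher by more than 0.5, a limit passed by 9.90% of all genes kept. Of its 15 kept genes 12 were higher with shKIAA1429, where 57.3% of all genes were, and the median was 0.17. With the trend of GC content and length removed the median was 0.07, and 3 of the 4 genes no longer passed, with UTP15 at 0.45, MPHOSPH10 at 0.50 and UTP20 at 0.31. WDR43 (UTP5), a subunit of the UTPA complex that binds the precursor first, was at 27.4 FPKM with shNC and 45.5 FPKM with shKIAA1429, a log2 change of 0.71. UTP15, a subunit of the same UTPA complex, was at 1.82 and 3.65 FPKM, a log2 change of 0.72 on a low level. MPHOSPH10, which enters with IMP3 and IMP4 as part of the U3 snoRNP complex, was at 6.99 and 11.4 FPKM, a log2 change of 0.64. UTP20, a very large scaffold protein, was at 9.10 and 13.3 FPKM, a log2 change of 0.50 that lay only just past the limit.

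Within these subcomplexes the log2 changes were uneven. HEATR1 (UTP10), a further subunit of UTPA, was at 14.1 and 15.6 FPKM, a log2 change of 0.14, and WDR75 (UTP17) at 12.8 and 15.6 FPKM, a log2 change of 0.26. IMP3 was at 12.8 and 13.0 FPKM and IMP4 at 17.8 and 20.2 FPKM, log2 changes of 0.02 and 0.17 beside the 0.64 of MPHOSPH10. Those 3 proteins form a complex, and while IMP3 mRNA was level, those of IMP4 and MPHOSPH10 were higher by unequal amounts. NOL6, an early scaffold, was at 8.32 and 11.1 FPKM, a log2 change of 0.38, and RRP9, a U3 snoRNP protein, at 13.4 and 15.4 FPKM, a log2 change of 0.19. WDR3 and the helicase DDX10 were at 4.12 FPKM or less in both libraries, with log2 changes of 0.13 and 0.14. The 3 kept genes on the other side of 0 were NOP14, a scaffold of the particle, at 17.3 and 13.5 FPKM, a log2 change of -0.33, UTP18 at -0.07 and the rRNA acetyltransferase NAT10 at -0.03.

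Late 40S maturation takes place partly in the cytoplasm. NOB1, the endonuclease that makes the final cut of the small rRNA, was the most abundant of these genes, at 68.0 FPKM with shNC and 48.4 FPKM with shKIAA1429, a log2 change of -0.48. LTV1, which must leave the pre-40S particle before it matures, differed the other way, at 15.5 and 24.6 FPKM, a log2 change of 0.63. LTV1 overlaps the listed gene AL049844.1 on its strand, so its value depends on how reads were divided between them. The other 3 of this role were level or slightly higher, with the export factor RRP12 at a log2 change of 0.14, the GTPase-like TSR1 at 0.05 and BYSL (bystin) at 0.21.

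In 60S assembly, NIP7 had the lowest change of all 54 nucleolar genes. NIP7, a small RNA-binding protein of the pre-60S particle, was at 17.6 FPKM with shNC and 7.09 FPKM with shKIAA1429, 40.4% of the shNC level with a log2 change of -1.20, at rank 55 from the lowest of 10702. Its GRCh37 position is chr16:69373333-69377014, plus strand. No other listed gene overlaps NIP7 on that strand, and overlap on the opposite strand was not examined. GENCODE 29 has 3 pseudogenes named after NIP7. Over all the settings tried its log2 change lay between -1.30 and -1.10. GNL2, a GTPase of the pre-60S particle, stood at the other end of this role, at 6.17 and 9.37 FPKM, a log2 change of 0.53 that was 0.47 after centring. Between them, DDX18, RRP1 and NOC3L had log2 changes of 0.40, 0.41 and 0.37.

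The remaining 60S factors differed little between the libraries. PES1, BOP1 and WDR12 form the PeBoW complex, and their log2 changes were -0.10, -0.18 and 0.07. PES1 was at 20.3 and 18.8 FPKM, BOP1 at 4.25 and 3.65 FPKM and WDR12 at 8.61 and 9.06 FPKM. None of the 3 thus differed by more than 0.2 on the log2 scale. RRS1, the most abundant gene of this role, was at 38.7 and 34.6 FPKM, a log2 change of -0.16, and it overlaps the listed gene ADHFE1 on its strand. NOP2, the rRNA methyltransferase known as the proliferation antigen p120, was at 21.9 and 26.0 FPKM, a log2 change of 0.24. MRTO4, NOP16, RRP1B and PPAN were higher by 0.11 to 0.23, and NOC2L and EBNA1BP2 were at -0.07 and -0.06. PPAN overlaps P2RY11 and the read-through gene PPAN-P2RY11 on its strand. The median of the 16 genes of this role was 0.12.

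**Figure D5:**
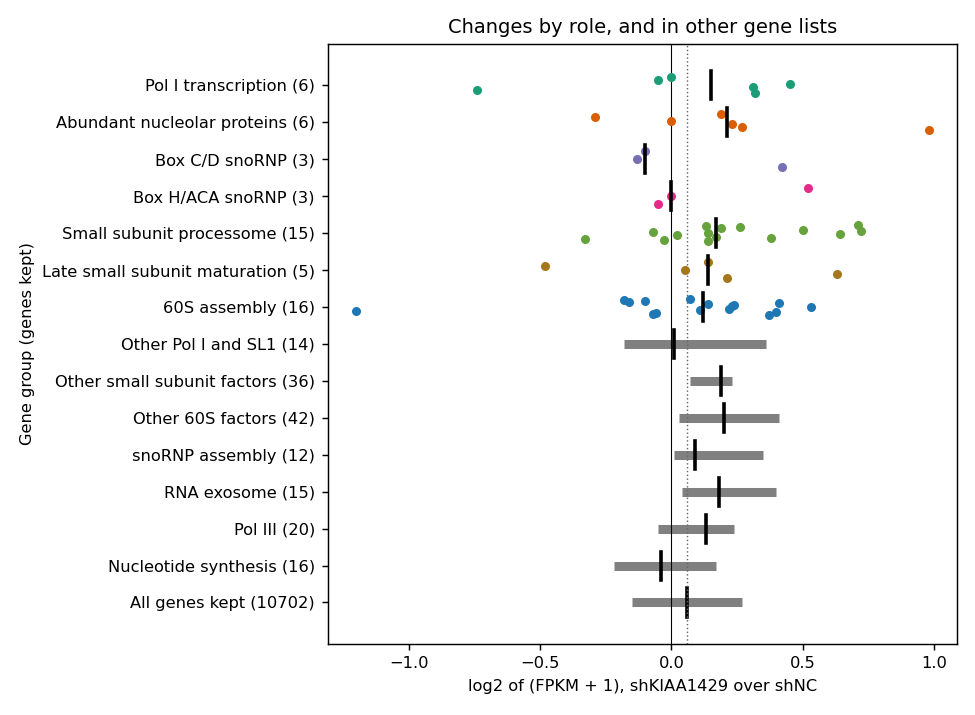
Log2 change of (FPKM + 1), shKIAA1429 over shNC, by role. Points are the kept nucleolar genes, black bars are medians, and grey bars span the middle 50% of the genes of each other list and of all genes kept, whose median of 0.06 is dotted. Medians of the roles lie between -0.10 for box C/D snoRNPs (0.08 after rescaling to a sum of 1000000, where that of all genes kept was 0.24) and 0.21 for the abundant nucleolar proteins, and each of the larger roles has points on both sides of 0.

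Other genes of the pathway, listed by hand, stood in the same range. For 36 further factors of the small subunit the median log2 change was 0.19, with 30 above 0, 5 higher by more than 0.5 and 1 lower. DDX47, a helicase of early processing, had the highest of these, at 8.55 FPKM with shNC and 15.8 FPKM with shKIAA1429, a log2 change of 0.81, and AATF the lowest, at 34.3 and 23.9 FPKM, a log2 change of -0.51. For 42 further factors of the large subunit the median was 0.20, with 32 above 0, 6 higher by more than 0.5 and 0 lower. DDX24 had the highest of these, at 4.25 and 8.80 FPKM, a log2 change of 0.90, and PELP1 the lowest, at 7.93 and 5.45 FPKM, a log2 change of -0.47. The remaining Pol I subunits and the SL1 factors, 14 genes, had a median of 0.01 and stayed within 0.5, from -0.29 for POLR1D to 0.47 for CD3EAP. The 12 snoRNP assembly factors had a median of 0.09, from -0.30 for RUVBL2 to 0.54 for TGS1. Together these 104 genes had a median of 0.16, 78 of them were above 0, and 12 were higher and 1 was lower by more than 0.5. Over all genes kept 57.3% were above 0, 9.90% higher and 6.12% lower by that much, so the count of higher genes is near that of all genes.

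What else the group shares was read from the annotation. By GENCODE 29, 8 of the 55 genes (14.5%) hold snoRNA genes on their own strand, 27 in all, against 1.82% of the genes kept. The hosts were NCL, GNL3, NOP56, NOP58, DKC1, WDR43, TSR1 and PPAN, so that several snoRNP proteins are made from genes that also carry snoRNAs. The snoRNAs themselves were not analysed here. The 8 hosts had a median log2 change of 0.23 and the other 46 kept genes one of 0.14. Over all genes kept the order was the other way, with 0.04 for 194 hosts and 0.06 for the 10508 others. In GC content of the longest coding transcript the group was like all genes kept, with medians of 48.4% and 48.5%. Across the 53 nucleolar genes with such a transcript, log2 change went down with GC content (Spearman's rho of -0.37), as it did across all genes kept (rho of -0.30). These points share the 2 libraries, and the part of GC content in the changes was not tested. With the trend of GC content and length removed, a setting chosen after seeing the data, the median of the group was 0.07 and that of all genes kept 0.00, and 3 genes rather than 8 were higher by more than 0.5.

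Most renal epithelial markers looked for were listed in both libraries. Of the renal epithelial markers, PAX8, PAX2, KRT8 and KRT18 were at 31.4 FPKM or more in each library and MET at 63.0 and 90.5 FPKM. LHX1 was lower with shKIAA1429, at 11.0 and 4.44 FPKM, a log2 change of -1.14, and so was VIM, at 368 and 228 FPKM, a log2 change of -0.69. PAX8 was higher, at 64.7 and 104 FPKM, a log2 change of 0.68. The part of these differences in the nucleolar genes' values was not tested. CA9 and CDH6 were not listed. Of 7 markers of immune, endothelial and mesenchymal cells 3 were listed, ACTA2, CD68 and COL1A1, and they summed to 52.0 FPKM in the shNC and 79.9 FPKM in the shKIAA1429 library, most of it from ACTA2, at 47.1 and 76.2 FPKM. PTPRC, PECAM1, VWF and COL3A1 were not listed. The 13 mitochondrial genes took 42.2% of the summed FPKM with shNC and 34.6% with shKIAA1429, and rescaling without them left the median over all genes kept at 0.07.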

How the data were processed

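The authors deposited 1 table of FPKM per library (fragments scaled to gene length and library size). The submitters' processing notes name cutadapt 1.9, HISAT2 2.0.4, StringTie 1.3.4d, DESeq2 and edgeR without roles. The deposited identifiers carry the suffix of GENCODE genes placed on GRCh37, and positions of genes are given as in the files. The tables list 12014 rows, each at 0.500 FPKM or more in at least 1 library. FPKM keeps no read count, so depth is unknown and no counting interval is given. Of 7 symbols on several rows, only the most abundant row entered.

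The members and lists were chosen with earlier results of these data known. Log2 changes used a pseudocount of 1 and a mean FPKM of at least 1. With 1 library per group no test was run. Named were the members past 0.5, the 5 highest and 5 lowest changes, the highest and lowest per role, the most abundant gene per role, and the extremes of each other pathway list, with MYC and VIRMA. Further members were named to complete each role. Promoters were printed for members with CACGTG before the start, at most 8. RefSeq windows are on GRCh38.p14 and were matched by symbol, and no coordinates were moved between builds. Transcript lengths, GC content, snoRNAs and pseudogenes came from GENCODE 29. Alternatives were other scalings, pseudocounts, filters and limits, and, added after the data were seen, a fit that takes out GC content and transcript length and the comparison palindromes. 1 gene of the renal marker list is not reported here. The steps were checked on simulated data. Values were computed in Python 3.11.15 with pandas 2.3.3 and NumPy 2.4.6, correlations with SciPy 1.17.1, and plots with matplotlib 3.10.9.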

Additional observations from a re-analysis of the deposited data

How the results depend on the processing

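Against 8 nucleolar genes higher and 2 lower by more than 0.5, centring on the median of all genes kept gave 5 higher and 3 lower (7.64% and 7.69% of all genes kept), rescaling both libraries to the same sum, 1000000, gave 16 higher (23.9% of all genes), removing the GC content and length trend (chosen after seeing the data) gave 3 (6.75% of all genes), and a limit of 1 gave 0 higher and 1 lower, the latter also against 0 past 1.5. The median of 0.14 became 0.34 after rescaling to a sum of 1000000, where that of all genes kept became 0.24, and lay between 0.07 and 0.17 in the other settings: a pseudocount of 0.1, centring, rescaling without mitochondrial genes, no filter, a mean FPKM of at least 5, summed rows, overlapping genes left out and the trend removed. The group's median stood above that of all genes kept by 0.07 to 0.12 in every one of these 9 settings. By construction, centring shifts every gene by the same amount. Rescaling to a sum of 1000000 multiplies all shKIAA1429 values by a larger factor than all shNC values, which by itself tends to raise the changes. The medians of all 7 roles were then higher than as deposited, as was that of all genes kept. With the trend removed, those of Pol I transcription, the abundant proteins and the small subunit processome were 0.02, 0.09 and 0.07, against 0.15, 0.21 and 0.17. The box C/D median of -0.10 became 0.08 after rescaling, -0.16 after centring and 0.00 with the trend removed. With centring, DKC1, GNL2 and UTP20 fell back within 0.5; with the trend removed DKC1, LTV1, MPHOSPH10, UTP15 and UTP20 did, and the cause was not tested. The share of genes with an E-box, 47.8%, was 15.2% with only the bases before the gene start, since most of the 22 genes have it only from the start on, or, in RRP9, across the start. No paired analysis was possible because each group is a single library. Depth limits are unknown, since FPKM keeps no counts.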

Other observations

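Neighbouring groups of genes were read in the same way. For the RNA exosome and its partners, which trim rRNA precursors, 15 genes had a median log2 change of 0.18, with EXOSC8 at 7.14 FPKM with shNC and 12.9 FPKM with shKIAA1429 (0.78) and DIS3, the catalytic subunit, at 2.81 and 5.41 FPKM (0.75), while EXOSC3 was at 4.99 and 2.90 FPKM (-0.62) and EXOSC7 at 5.04 and 3.06 FPKM (-0.57). Subunits of the same exosome core thus stood on both sides of 0. For RNA polymerase III and its factors, 20 genes had a median of 0.13, from -0.54 for POLR3GL to 0.55 for POLR3K.

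Nucleotide synthesis genes, a further class of known MYC targets, had a median of -0.04 over 16 genes, 8 of them above 0 and 8 below. For all genes kept the median was 0.06, and 57.3% of them were above 0. IMPDH2, the rate-limiting enzyme of guanine nucleotide synthesis, was at 86.7 FPKM with shNC and 58.9 FPKM with shKIAA1429 (-0.55), and its paralog IMPDH1 at 10.1 and 6.64 FPKM (-0.54). After rescaling to a sum of 1000000 the median of this list was 0.13, where that of all genes kept was 0.24. PRPS1 was the highest, at 28.0 and 37.5 FPKM (0.40).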
